A study of Mus musculus with 2 samples.

Results

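The SR proteins and the hnRNP proteins are the main families of RNA-binding proteins that steer pre-mRNA splicing, and their genes were followed here in mouse embryonic stem cells given an siRNA against Set1a. Members were taken by name: every gene whose symbol begins with Srsf or Hnrnp, with the transcript of the highest summed value standing for the gene. This gave 32 genes of 22421 in the deposited tables, 11 Srsf and 21 Hnrnp genes, listed on 63 transcript rows. The rule for genes uses names only, but it was set with earlier results of these data known.

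The cells were CGR8, an established mouse embryonic stem cell line, grown without feeder cells on gelatin in serum-containing medium with leukaemia inhibitory factor (LIF), a cytokine that holds such cells in the undifferentiated state. The control group received negative siRNA and the other group Set1a siRNA, each in 2 transfections over a 72-hour period, and each group consists of 1 RNA-seq library. Set1a, listed as Setd1a, encodes a histone H3 lysine 4 methyltransferase, and the stated question is how its loss affects gene expression across the genome. The labels name no genotype other than that of the line, and neither the siRNA sequences nor a second culture is described.

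The values are RPKM, the read number scaled to transcript length in kilobases and to library depth. The libraries were scaled to 6655821 reads (control siRNA) and 6421185 reads (Set1a siRNA), as recovered from the values themselves. Setd1a stood at 14.2 RPKM (559 reads) with control siRNA and 12 RPKM (456 reads) with Set1a siRNA, a ratio of 0.846. Each ratio below is Set1a siRNA over control siRNA, with a 95% exact (Clopper-Pearson) interval, which for Setd1a was 0.746 to 0.959. The 6 pluripotency markers examined spanned 79.5 to 745 RPKM with control siRNA and 83.7 to 740 RPKM with Set1a siRNA, and 1 of them, Sox2, had an interval that excludes 1, at 283 and 248 RPKM (0.875, interval 0.823 to 0.929). The 12 markers of mesoderm, endoderm, trophectoderm, neural cells and fibroblasts summed to 9.56 and 13.2 RPKM, none was above 3.86 RPKM in either library, and Cdx2 and Col1a2 were at 0 in both. Of these markers, 4 averaged 1 RPKM or more, and 1 of them, the trophectoderm and early mesendoderm gene Eomes, had an interval that excludes 1, at 2.55 and 3.77 RPKM (1.48, interval 1.06 to 2.08). Below that level, the fibroblast marker Col1a1 had an interval that also excludes 1. It rests on 2 and 11 reads, 0.064 and 0.365 RPKM (5.70, interval 1.24 to 52.9). The part of cells with these markers in the results was not tested. As each siRNA has 1 library, nothing here checks for spread between cultures: the intervals cover counting error only, reads without molecular identifiers are not independent molecules, and a difference of conditions cannot be told apart from a difference of cultures. In RNA from whole cultures, fewer cells that express a gene and less of its RNA per cell cannot be told apart either.

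SR proteins carry RNA recognition motifs and a tail rich in arginine-serine dipeptides. They bind exons, often at splicing enhancers, and recruit the U1 and U2 small nuclear ribonucleoproteins (snRNPs) to the neighbouring splice sites. The hnRNPs coat nascent transcripts, and several of them silence exons or compete with SR proteins. Many genes of both families limit their own output by splicing in an exon that brings an early stop codon, which sends the transcript to nonsense-mediated decay. Such exons are often called poison exons.

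Among the 11 SR genes, 10 were above 20 RPKM in both libraries, and the order of their levels ran from Srsf2 through Srsf3, Srsf5 and Srsf7 down to Srsf4. The ratios of these 10 genes lay between 0.917 and 1.08. The sum over them was 931 RPKM with control siRNA and 924 RPKM with Set1a siRNA, a ratio of 0.993. Srsf12, the remaining gene, had 0 reads with control siRNA and 1 read (0.0530 RPKM) with Set1a siRNA. Since 3 reads would make 0.153 and 0.159 RPKM in the respective libraries, Srsf12 was not measurable at this depth and is given no ratio.

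**Figure D1:**
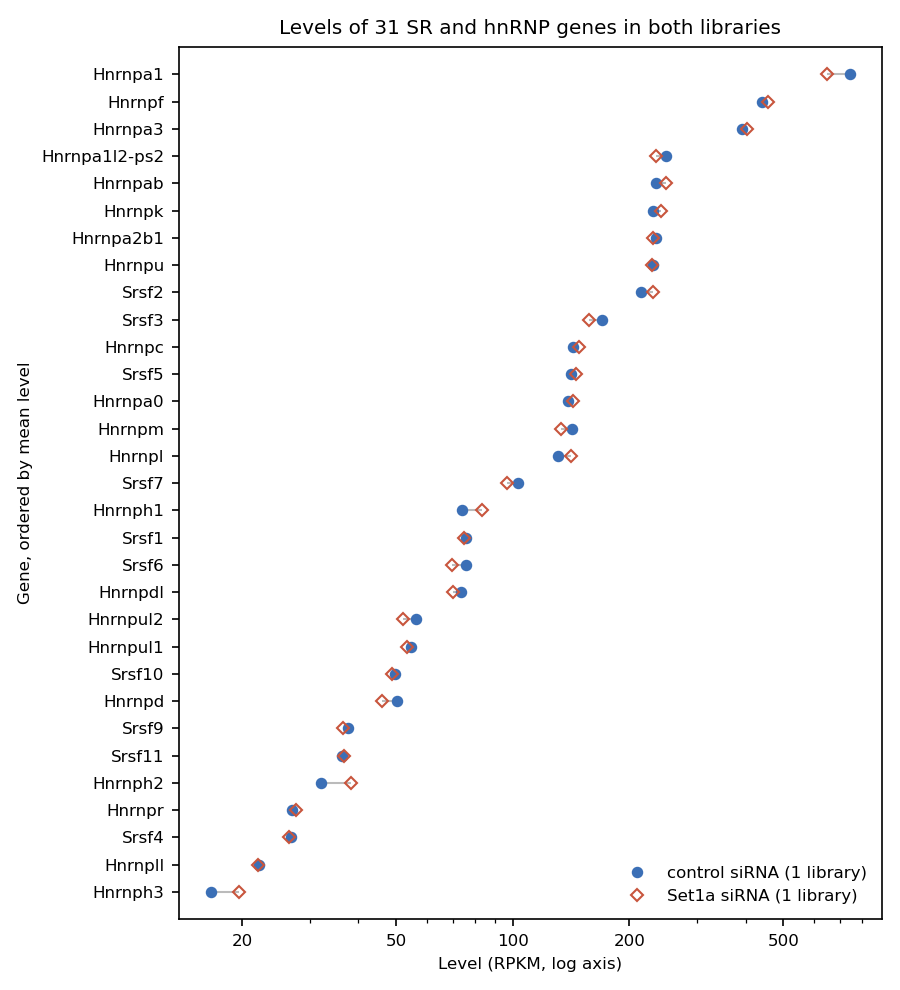
Level of the 31 measured SR and hnRNP genes in RPKM (log axis) in the control siRNA and the Set1a siRNA library, 1 point per library and gene, ordered by level. The paired points lie close together along the whole scale, from Hnrnpa1 at 743 and 649 RPKM down to Hnrnph3 at 16.6 and 19.6 RPKM.

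Srsf3 and Srsf7 are small SR proteins that also serve in mRNA export, and both have a well-described poison exon. The tables list each of them with a coding transcript and with a noncoding transcript that differs by that exon, so the exon could be measured. The start of each exon is shown because it carries the early stop. In GENCODE M21 on the GRCm38 build, the extra exon of Srsf3 is chr17:29039454-29039909 on the plus strand (456 nt), of which chr17:29039454-29039487 is printed. That of Srsf7 is chr17:80204622-80205081 on the minus strand (460 nt), of which chr17:80205054-80205081 is printed. Both lie inside their own gene as an exon of the noncoding transcript. Capitals mark the bases of the extra exon from its first base to the first in-frame stop codon, TGA, and lower case marks coding sequence, 30 nt of it upstream. Each exon is followed by the same junction spliced without it.
Srsf3 with the extra exon: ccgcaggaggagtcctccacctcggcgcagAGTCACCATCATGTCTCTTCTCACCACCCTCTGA
Srsf3 without it: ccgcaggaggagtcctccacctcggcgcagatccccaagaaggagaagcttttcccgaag
Srsf7 with the extra exon: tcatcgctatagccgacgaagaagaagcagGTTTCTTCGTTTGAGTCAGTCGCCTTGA
Srsf7 without it: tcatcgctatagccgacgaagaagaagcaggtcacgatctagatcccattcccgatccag

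The coding transcript of Srsf3 stood at 170 RPKM (2923 reads) with control siRNA and 157 RPKM (2609 reads) with Set1a siRNA, a ratio of 0.925 (0.877 to 0.976). The noncoding transcript, 456 nt longer, held 2979 and 2659 reads. This length, like those for Srsf7 and Srsf9 below, was found by adding annotated extra exons and splice site changes to the coding length. The only combination with whole reads in both libraries was kept. The counting program is not given, so it was assumed that both rows count every read they share. On that basis the added 456 nt held the difference, 56 and 50 reads, or 18.5 and 17.1 RPKM. Read density in the poison exon was thus 10.9% of that of the coding transcript (interval 8.18 to 14.1) with control siRNA and 10.9% (8.04 to 14.4) with Set1a siRNA. The exon's own ratio was 0.925 (0.619 to 1.38), the same as that of the coding transcript to the digits given.

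For Srsf7 the coding transcript of the pair held 1555 reads with control siRNA and 1411 with Set1a siRNA. The noncoding transcript, 451 nt longer because it also lacks 9 nt at a splice site, held 1632 and 1484 reads. The difference of 77 and 73 reads, 25.7 and 25.2 RPKM, put the density of the added stretch at 25.1% (19.7 to 31.6) and 26.2% (20.5 to 33.2) of the coding transcript. Its ratio was 0.983 (0.704 to 1.37), beside 0.939 (0.873 to 1.01) for the gene's most abundant row, which went from 103 to 96.9 RPKM. The added stretch was therefore read more densely relative to its coding transcript in Srsf7 than in Srsf3 in each library, with intervals that did not overlap, and the share within each gene differed between libraries by less than its counting error.

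Srsf9 has an extra exon of 90 nt on its noncoding row, at chr5:115331450-115331539 (plus strand, GRCm38). It held 4 reads with control siRNA and 0 with Set1a siRNA, on a coding transcript of 291 and 272 reads. The density was 17.7% (4.80 to 45.9) of the coding transcript in the first library, and the 0 reads of the second allow up to 17.6%. No difference was detectable at this depth. In all 3 genes, reads that span an exon edge may be counted on both rows, and reads from unspliced RNA over the same bases would be counted as well. Their share was not tested.

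**Figure D2:**
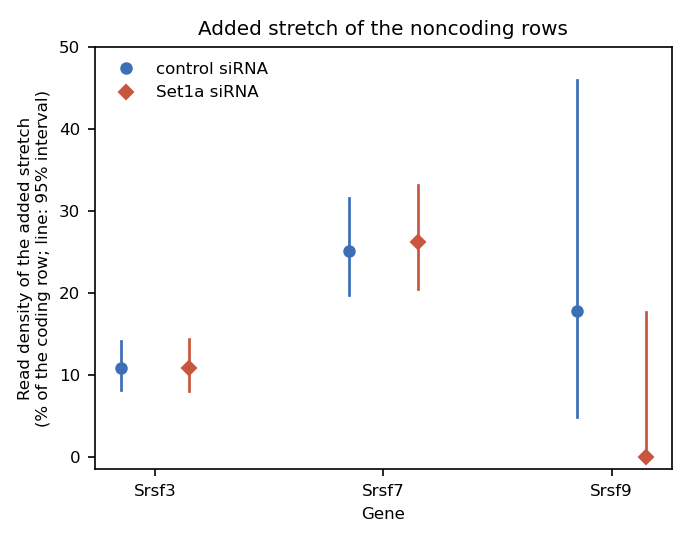
Read density in the added exon stretch of Srsf3, Srsf7 and Srsf9 as a percentage of the density of the coding transcript, in the control siRNA and the Set1a siRNA library, with exact 95% intervals for counting error. Srsf3 lies at 10.9% in both libraries, Srsf7 at 25.1% and 26.2%, and the bars of Srsf9 are wide because they rest on 4 and 0 reads.

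Of the other SR genes, Srsf2, which encodes SC35, a protein of nuclear speckles that binds exonic enhancers, was the most abundant at 215 RPKM with control siRNA and 231 RPKM with Set1a siRNA. Its ratio of 1.08 (1.02 to 1.13), from 2718 and 2822 reads, was the highest of the family. Srsf2 shares 460 annotated exonic bases with Mettl23 and 288 with Mfsd11 on the opposite strand, and the strand handling of the counting is not given in the sources used here. Srsf6, an SR protein with a paired RNA recognition motif, went from 76.0 to 69.7 RPKM (1793 and 1586 reads), a ratio of 0.917 (0.856 to 0.982) and the lowest of the family. Srsf2 was thus higher, and Srsf3 and Srsf6 lower, by less than 1.1-fold but beyond counting error.

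The remaining SR genes had intervals that include 1. Srsf1, the founding member (ASF/SF2), stood at 75.6 and 74.7 RPKM, a ratio of 0.989 (0.935 to 1.05). Srsf5 stood at 141 and 146 RPKM with a ratio of 1.03 (0.959 to 1.11), and Srsf4 at 26.8 and 26.5 RPKM with a ratio of 0.990 (0.859 to 1.14). The interval of Srsf4 is wider than that of Srsf1 because it rests on fewer reads. Srsf9, at 37.6 and 36.5 RPKM, gave 0.969 (0.818 to 1.15). Srsf10, which acts as a splicing repressor when dephosphorylated, stood at 49.7 and 48.8 RPKM (0.981, interval 0.892 to 1.08). Srsf11, an SR-like protein also known as p54, stood at 36.2 and 36.8 RPKM (1.02, interval 0.917 to 1.13).

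The 21 Hnrnp genes summed to 3715 RPKM with control siRNA and 3670 RPKM with Set1a siRNA, a ratio of 0.988, and their ratios ran from 0.874 to 1.19. Hnrnpa1, of the A/B class, was at the lower end of that range, and Hnrnph2, of the H/F class, was at the upper end. In the A/B class, which binds exonic and intronic silencers and packages nascent RNA, Hnrnpa1 was the most abundant of all 32 genes in each library. It went from 743 RPKM (8702 reads) to 649 RPKM (7334 reads), a ratio of 0.874 (0.847 to 0.901). Its transcripts, listed on 2 rows, gave the same ratio of 0.874 each. Hnrnpa1l2-ps2, a processed pseudogene in GENCODE that is 97.7% identical to Hnrnpa1 over 963 nt, was listed at 248 and 235 RPKM, a ratio of 0.947 (0.887 to 1.01). How the authors assigned reads that fit both sequences is not given in the sources used here, so the values of both genes are uncertain.

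The other A/B genes did not share the lower value of Hnrnpa1. Hnrnpa2b1, the second core protein of the class, stood at 235 and 230 RPKM, a ratio of 0.982 (0.928 to 1.04). Hnrnpa3 stood at 391 and 402 RPKM (1.03, interval 0.988 to 1.07), and Hnrnpa0 at 139 and 143 RPKM (1.03, interval 0.976 to 1.09). All of these intervals lie wholly above that of Hnrnpa1. Hnrnpab, an A/B-type protein that binds RNA and single-stranded DNA, went from 234 RPKM (3743 reads) to 249 RPKM (3844 reads), a ratio of 1.06 (1.02 to 1.11). It shares 809 exonic bases with Phykpl on the opposite strand.

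The H/F class binds runs of G in introns and exons through quasi-RRM domains and includes the members with the highest ratios. Hnrnph1 went from 74.2 RPKM (1099 reads) to 83.5 RPKM (1194 reads), a ratio of 1.13 (1.04 to 1.22). Hnrnph2, its X-linked close relative, went from 32.0 RPKM (504 reads) to 38.2 RPKM (580 reads), a ratio of 1.19 (1.06 to 1.35). Hnrnph3, a shorter member, went from 16.6 RPKM (240 reads) to 19.6 RPKM (273 reads), a ratio of 1.18 (0.988 to 1.41). These were the 3 highest ratios among the 31 measured members, and for Hnrnph3 the interval included 1. Hnrnph3 shares 115 exonic bases with Rufy2 on the opposite strand. Hnrnpf, the remaining member of the class and second in level among all members in each library, stood at 441 RPKM (6348 reads) and 455 RPKM (6320 reads), a ratio of 1.03 (0.996 to 1.07). Its interval overlaps those of the 3 H genes, which does not decide whether the ratios differ. A difference between Hnrnpf and any of them was not tested.

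Because the 3 H genes had the highest ratios, their promoters are shown, taken from RefSeq on GRCm38.p6 as the 250 bases before the first listed start, 5′ to 3′ on the gene's strand. The windows are chr11:50376740-50376989 (plus), inside the annotated span of Hnrnph1, which has other starts; chrX:134600929-134601178 (plus), upstream of Hnrnph2; and chr10:63023850-63024099 (minus), which overlaps the annotated 5′ end of Hnrnph3. Capitals mark matches, on either strand, to the GC box GGGCGG (bound by Sp1-type factors) and to CCAAT (bound by NF-Y).
Hnrnph1: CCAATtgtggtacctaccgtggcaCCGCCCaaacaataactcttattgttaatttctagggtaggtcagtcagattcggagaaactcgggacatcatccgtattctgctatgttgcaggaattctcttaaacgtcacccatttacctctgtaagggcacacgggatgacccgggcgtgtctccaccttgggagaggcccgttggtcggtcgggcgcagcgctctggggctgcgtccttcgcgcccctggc
Hnrnph2: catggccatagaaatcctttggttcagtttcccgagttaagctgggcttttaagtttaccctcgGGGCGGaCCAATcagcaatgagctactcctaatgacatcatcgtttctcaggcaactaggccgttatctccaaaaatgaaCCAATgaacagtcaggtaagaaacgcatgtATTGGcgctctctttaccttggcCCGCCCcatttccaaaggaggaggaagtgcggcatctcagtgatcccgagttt
Hnrnph3: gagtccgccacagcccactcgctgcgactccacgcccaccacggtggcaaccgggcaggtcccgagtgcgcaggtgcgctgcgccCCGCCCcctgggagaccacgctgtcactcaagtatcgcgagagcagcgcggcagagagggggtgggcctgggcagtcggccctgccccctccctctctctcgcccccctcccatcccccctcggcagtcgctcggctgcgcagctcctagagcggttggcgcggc

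The Hnrnph1 window held 1 GC box and 1 CCAAT, that of Hnrnph2 held 2 GC boxes and 3 CCAAT, and that of Hnrnph3 held 1 GC box. Their GC contents were 55.6%, 48.4% and 73.6%, with 17, 10 and 25 CpG dinucleotides. RefSeq windows matched 30 of the 32 members (Hnrnpll and Hnrnpul2 had no entry), and their median GC content was 64.4%, against 55.6% over the 17128 genes with a window. The median number of CpG dinucleotides per window was 23 in members and 10 over all genes, and 93.3% of member windows held at least 10 of them against 52.1% of all windows.

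A GC box was present in 23 of the 30 member promoters (76.7%), against 44.1% of all promoters of that length. CCAAT was present in 16 (53.3%, against 36.5%) and the ETS motif CCGGAAG in 6 (20%, against 9.28%). TATAAA was found in 4 (13.3%, against 12.1%) and the E-box CACGTG in 2 (6.67%, against 6.92%). The YY1 motif AAGATGGC was found in 1 (3.33%, against 1.59%). All motifs were searched on both strands; a GC box can overlap CCAAT or the ETS motif by at most 2 bases, and these matches describe letters, not bound sites. GC-rich windows hold GC-rich motifs more often, so the base composition stands beside the share of GC boxes. For motifs and base composition alike, all genes with a window were used whatever their level, including genes below 1 RPKM. Of the members, 30 averaged 20 RPKM or more, so the sets are not matched in level. A comparison at matched level was not made.

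Hnrnpc, which binds uridine tracts and takes part in packaging nascent transcripts, stood at 143 and 148 RPKM, a ratio of 1.03 (0.951 to 1.12). Hnrnpd, or AUF1, a regulator of mRNAs with AU-rich elements, went from 50.3 RPKM (2278 reads) to 45.9 RPKM (2008 reads), a ratio of 0.914 (0.860 to 0.971). Its relative Hnrnpdl stood at 73.7 and 70.3 RPKM, a ratio of 0.954 (0.882 to 1.03). Hnrnpd was the lower of the pair in ratio, and the intervals of the pair overlap. Hnrnpd shares 385 exonic bases with Gm17092 on the opposite strand. Hnrnpk, a KH-domain protein that binds runs of C, stood at 230 and 241 RPKM (1.05, interval 0.997 to 1.1).

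Hnrnpl, which binds CA repeats, went from 131 RPKM (1863 reads) to 142 RPKM (1949 reads), a ratio of 1.08 (1.02 to 1.16). Its paralog Hnrnpll, best known for CD45 splicing in lymphocytes, was listed at 22.1 and 22.0 RPKM (ratio 0.998, interval 0.874 to 1.14). The intervals of the paralogs overlap, which does not decide whether their ratios differ, and a difference between them was not tested. Hnrnpm, a splicing regulator that binds GU-rich sequence, went from 142 RPKM (2284 reads) to 133 RPKM (2066 reads), a ratio of 0.938 (0.883 to 0.996). It shares 1169 exonic bases with March2 on the same strand.

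Hnrnpr stood at 27.0 and 27.7 RPKM (1.02, interval 0.9 to 1.16). Hnrnpu, also called SAF-A, a protein that binds chromatin and RNA, stood at 231 and 229 RPKM (0.991, interval 0.944 to 1.04). Of its relatives, Hnrnpul1 stood at 54.5 and 53.3 RPKM (0.977, interval 0.894 to 1.07). The second relative, Hnrnpul2, went from 56.4 RPKM (2150 reads) to 52.1 RPKM (1917 reads), a ratio of 0.924 (0.869 to 0.983). Of the U group, only Hnrnpul2 had an interval that excludes 1, and it overlaps those of Hnrnpu and Hnrnpul1. Hnrnpul2 shares 360 exonic bases with AC129217.1 on the same strand, and Hnrnpu shares 804 with Cox20 on the opposite strand.

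**Figure D3:**
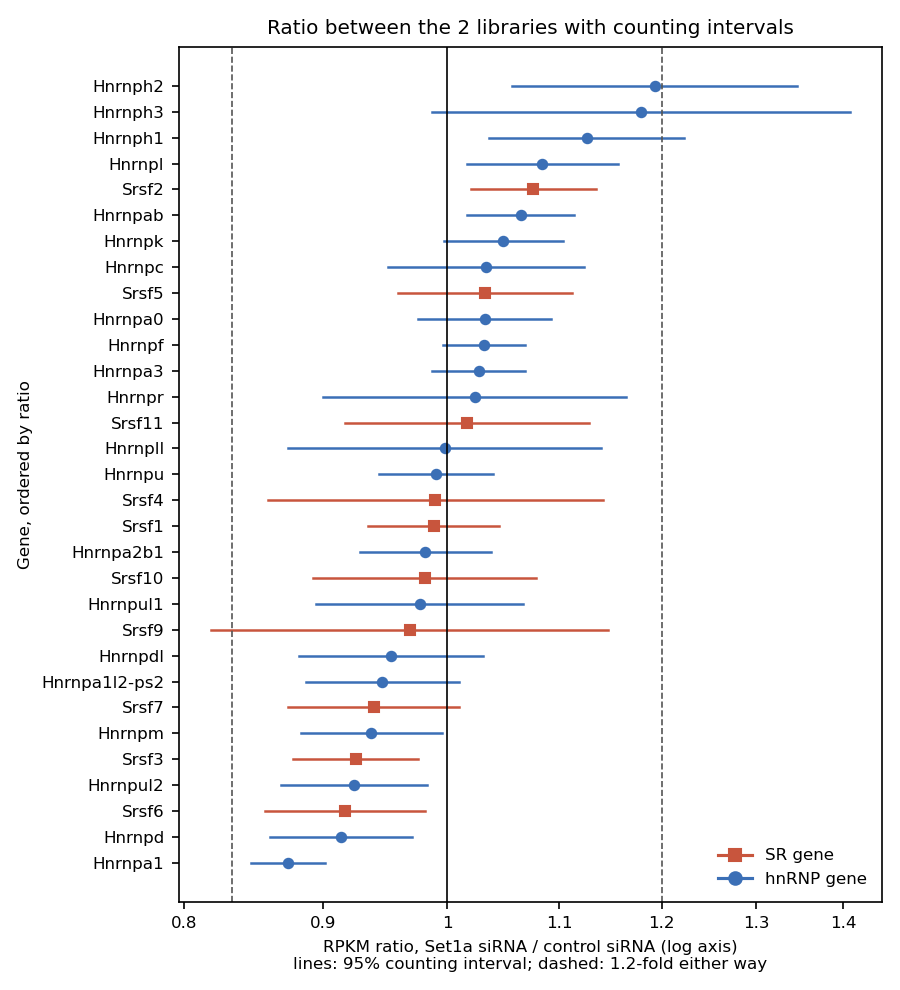
Ratio of Set1a siRNA to control siRNA RPKM for the 31 measured SR and hnRNP genes, with exact 95% intervals for counting error. Ratios run from 0.874 (Hnrnpa1) to 1.19 (Hnrnph2), and 5 intervals lie wholly above 1 and 6 wholly below it.

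Across the families, counts were made on log2((RPKM + 1)/(RPKM + 1)) for genes whose 2 values average 1 RPKM or more, which 31 members and 11802 genes in all reached. None of the 31 members was at least 1.2-fold higher and none was at least 1.2-fold lower, whereas 14.2% of all genes were higher and 12% lower by that rule. Setd1a, the siRNA target, had a log2 fold of -0.22 and did not reach 1.2-fold by that rule either. At 1.1-fold, 3 members were higher (Hnrnph1, Hnrnph2 and Hnrnph3), beside 27.4% of all genes, and 1 was lower (Hnrnpa1), beside 25.2%. None of the 10 measured SR genes reached 1.1-fold, and no member reached 2-fold, which 1.18% of all genes did either way. Abundant genes have less counting error, so the same counts were taken above higher floors, which narrows the gap in level but does not match it. At a floor of 20 RPKM the median gene still had 596 control reads, and the median member 1894. Among the 3063 genes averaging 20 RPKM or more, 6.66% were at least 1.2-fold higher and 8.36% lower, beside 0 of 30 members. Among the 862 genes with at least 1000 reads in the control library, 3.71% were at least 1.2-fold higher and 6.61% lower, beside 0 of 23 members. At 1.1-fold, 37.1% of those 862 genes passed in either direction, and 2 of the 23 members did (Hnrnph1 and Hnrnpa1). With 31 genes and 1 library per group, these counts carry no test.

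Counting intervals excluded 1 for 5 members upward (Hnrnpab, Hnrnph1, Hnrnph2, Hnrnpl and Srsf2), beside 11.4% of the 11747 genes for which an interval was obtained. They excluded 1 for 6 members downward (Hnrnpa1, Hnrnpd, Hnrnpm, Hnrnpul2, Srsf3 and Srsf6), beside 10.5% of those genes. Together this was 11 of 31 members, or 35.5%, against 21.9%. At an average of 20 RPKM or more it was 11 of 30, or 36.7%, against 35.4%, and with at least 1000 control reads it was 10 of 23, or 43.5%, against 53.9%. Above these floors the share of members was near or below that of all genes above the same floor, although at 20 RPKM the members held more reads.

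The median log2 fold was -0.02 for the SR genes (quartiles -0.08 and 0.01) and 0.03 for the hnRNP genes (quartiles -0.07 and 0.07). The median over all 11802 genes was 0.0063, with quartiles of -0.14 and 0.16. The fold was above 0 for 3 of 10 SR genes and 11 of 21 hnRNP genes, beside 51.2% of all genes. These counts depend on the scaling. With depth taken without the 50 most abundant genes, Srsf1, Srsf4, Hnrnpu and Hnrnpll also lay above 0, and the median of all genes rose to 0.022. Outside these quartiles of all genes lay 4 members: Hnrnph1 at 0.17, Hnrnph2 at 0.25, Hnrnph3 at 0.23 and Hnrnpa1 at -0.19.

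**Figure D4:**
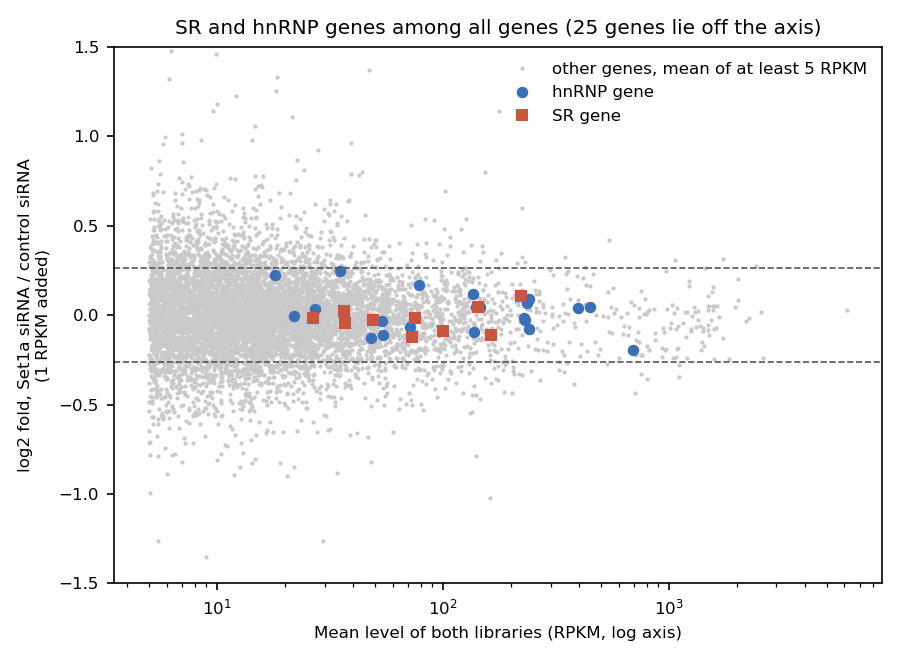
Log2 fold of Set1a siRNA over control siRNA (with 1 RPKM added) against mean level in RPKM (log axis), for SR genes, hnRNP genes and 7910 other genes averaging 5 RPKM or more. All members lie between -0.19 and 0.25, and 25 other genes beyond 1.5 either way lie off the axis and are not drawn.

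Of the 32 genes, 16 were listed on 1 transcript row and 16 on more than 1. The rows of a gene are taken to count shared reads, so they are not independent, and in none of the 16 genes did the ratio intervals of the rows separate. Levels of the rows, in contrast, differed by more than 1.1-fold in 7 genes. Those of Hnrnpa2b1 stood at 144 and 235 RPKM with control siRNA and at 140 and 230 RPKM with Set1a siRNA. Those of Srsf10 stood at 30.7 and 49.7 RPKM with control siRNA and at 29.5 and 48.8 RPKM with Set1a siRNA. In these 2 genes the row order was the same in both libraries. Hnrnpa3 had 3 rows between 282 and 391 RPKM with control siRNA, and their ratios ran from 0.986 to 1.03, so its direction depends on the row. The rows of Hnrnpul1 spanned 44.0 to 54.5 RPKM, the 7 rows of Hnrnpf 381 to 441 RPKM, those of Srsf3 147 to 170 RPKM and the 5 rows of Srsf7 89.5 to 103 RPKM, all with control siRNA. In the other 9 genes with several rows, levels stayed within 1.1-fold.

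The partners of these proteins were read from lists of genes, and the same 1.2-fold rule was applied together with an interval that excludes 1. Of the 11747 genes with such an interval, 7.93% passed upward and 6.44% downward. Among 20 SR-related proteins none was higher and 1 was lower: Luc7l3, a U1 snRNP-associated protein, went from 29.8 to 24.2 RPKM, a ratio of 0.814 (0.724 to 0.916). Among the 9 kinases and importers of SR proteins, which set their phosphorylation and bring them to the nucleus, none passed in either direction. The fold was above 0 for 7 of these 9, beside 51.2% of all genes. It was above 0 for 12 of the 20 SR-related proteins, 9 of 21 hnRNP relatives, 10 of 24 U1 and U2 proteins, 6 of 16 tri-snRNP and catalytic factors and 6 of 10 decay factors. By the interval alone, 1 of the 16 tri-snRNP and catalytic factors lay wholly above 1 and 6 wholly below it. For the other lists these counts were 2 and 2 (SR-related), 1 and 0 (kinases and importers) and 5 and 4 (hnRNP relatives). They were 3 and 5 for U1 and U2 proteins and 2 and 2 for decay factors. Of all genes, 11.4% lay above and 10.5% below, or 16.1% and 19.3% of those averaging 20 RPKM or more. Among the 9 kinases and importers, the highest fold was that of Clk3, at 6.93 and 8.87 RPKM (1.28, interval 0.994 to 1.65). The lowest of these 9 was Dyrk1a with a ratio of 0.952 (0.820 to 1.1).

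Among 21 hnRNP proteins and relatives with other symbols, none passed either way. The highest was Ptbp1, a repressor that binds pyrimidine tracts, at 120 and 142 RPKM (1.18, interval 1.12 to 1.25). The lowest was its neuronal paralog Ptbp2, with a ratio of 0.812 (0.640 to 1.03). Of 24 proteins of the U1 and U2 snRNPs, which SR proteins recruit, 1 passed upward, Sf3b3, a subunit of the SF3B complex, from 48.0 to 61.7 RPKM (1.29, interval 1.13 to 1.46).

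Of 16 tri-snRNP and catalytic factors, 1 passed upward and 1 downward. Dhx16, a helicase that acts before the first catalytic step, went from 36.8 to 44.9 RPKM (1.22, interval 1.11 to 1.34). Snrnp200, the helicase that unwinds U4 from U6, went from 72.1 to 59.4 RPKM (0.823, interval 0.782 to 0.868). None of the 10 factors of nonsense-mediated decay, the pathway that degrades transcripts with poison exons, passed either way. The highest was Upf1, its central helicase, at 19.2 and 22.3 RPKM (1.16, interval 1.04 to 1.3), and the lowest was Upf3b with a ratio of 0.828 (0.664 to 1.03).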

How the data were processed

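Per the labels, RNA from 2 CGR8 cultures was sequenced, 1 library per siRNA. The authors deposited 1 value per RefSeq transcript (28430 rows) with no header. The unit, RPKM, was inferred from the deposited values, which move in whole-read steps. The submitters' processing notes name CASAVA, TopHat, TopHat2 2.0.12, SAMtools 0.1.16 and the mm9 build. The counting program, strand handling and treatment of multiply mapped reads: not given in the sources used here.

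Depths were recovered from 678 control and 624 Set1a rows, picked because they lay close to 1 to 5 whole reads at a first guess of the depth. The depth kept was the one that put most of them at whole reads within rounding, 99.4% in each library. The next best depth fitted 640 control and 590 Set1a rows. As the rows were picked by closeness to whole reads, these shares are no independent check. Whole reads per transcript followed from lengths near GENCODE M21 (within 10% and 50 nt) for 20 members. For the other 12 the shortest fitting length was taken, which widens the interval. Over all rows above 0, a near length was found for 58.3%. The others were treated in the same way where a length fitted. Read numbers and interval widths of the genes used for comparison are therefore affected as well. Symbols were matched for 98.3% of rows. Sequences and overlaps come from GRCm38 annotation, and no mm9 genome was used. Of 34 symbols with these prefixes in the reference, 2 (Hnrnpa1l2-ps and Srsf3-ps) were not analysed here. Shared exonic bases with another gene were found for 14 members. These were Hnrnpa3, Hnrnpab, Hnrnpd, Hnrnpf, Hnrnph3, Hnrnpk, Hnrnpl, Hnrnpm, Hnrnpr, Hnrnpu, Hnrnpul2, Srsf1, Srsf2 and Srsf4. The longest stretch was 1532 bases of Srsf4 shared with Gm12992 on the opposite strand.

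Folds are log2 with 1 RPKM added, which understates changes of low genes. No test across genes was possible, so no p-value is given. Members were all named; other genes were Setd1a and, per list, those past 1.2-fold with an interval excluding 1 or, if none, the highest and lowest fold. Members and lists were chosen with earlier results of these data known. The comparison among genes with at least 1000 control reads was added after the data were seen. Data were simulated for the Set1a siRNA comparison over 11676 genes, with counting error only and no spread between cultures. The changed genes were drawn from those averaging 20 RPKM or more. Among them, the 1.2-fold rule found 92% of 50 genes raised 1.3-fold, 82% of 50 lowered to 0.769 and 4% of 50 raised 1.1-fold. Python 3.11.15, pandas 2.3.3, NumPy 2.4.6, SciPy 1.17.1, matplotlib 3.10.9 and Biopython 1.88 were used.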

Additional observations from a re-analysis of the deposited data

How the results depend on the processing

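The number of members at least 1.2-fold higher, 0 as reported, was 1 (Hnrnph2) when depth was taken without the 50 most abundant genes, and 3 with a 1.1-fold rule. The number at least 1.2-fold lower was 1 (Hnrnpa1) with a 1.1-fold rule. With 99% intervals, 4 members stayed wholly above 1 (Hnrnpab, Hnrnph1, Hnrnph2 and Srsf2) and 3 wholly below it (Hnrnpa1, Hnrnpd and Srsf3). Under every alternative run, the median log2 fold of each family moved by less than 0.094, the middle size of a member's counting error; that of the hnRNP genes ran from -0.0027 to 0.0497 and has no firm direction. Across the alternatives, 154 of 155 recomputed member folds stayed within their counting interval. The exception was Hnrnpa3, at -0.02 with the transcript holding the most reads and 0.04 as reported. The sign of the fold also changed for Srsf1, Srsf4, Hnrnpu and Hnrnpll when depth was taken without the 50 most abundant genes. All of these folds were close to 0. The fold of Setd1a lay between -0.24 and -0.17. No paired analysis was possible because neither group holds more than 1 library, and for the same reason no library could be left out. Depth limits the low members: the intervals of Srsf9 (291 and 272 reads) and Hnrnph3 (240 and 273 reads) include 1 and also differences of more than 1.1-fold.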
